A study of Homo sapiens with 4 samples.

Results

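The genes described here build the MHC class I antigen presentation pathway: HLA-B, HLA-C, B2M, TAP1, TAP2, TAPBP, PSMB8, PSMB9 and NLRC5. They are 9 of the 60658 Ensembl gene identifiers in the expression tables, chosen by symbol. By the symbols of GENCODE release 44, each matched exactly 1 row of the expression tables, so no symbol had several rows to choose from or add up. Identifiers without a symbol could not be matched. RNA was sequenced in 4 libraries from HT29 and LIM1215, established lines of human colorectal cancer. In each line, 1 library came from cells with a negative control siRNA (NC) and 1 from cells with an siRNA against TMEM161A (si2), a gene for a transmembrane protein. The dose and the time after transfection are not given in the sources used here. With 1 library per group there was no replicate error and no test, so each value below describes these libraries. In bulk RNA, fewer cells of a kind and less RNA per cell cannot be told apart.

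Class I molecules show peptides from inside the cell to CD8+ T cells. A polymorphic heavy chain, such as HLA-B or HLA-C, pairs with the invariant light chain B2M. The peptides come from proteasomes, and the interferon-inducible subunits PSMB8 and PSMB9 replace the constitutive subunits PSMB5 and PSMB6 in immunoproteasomes. TAP1 and TAP2 form the transporter that carries peptides into the endoplasmic reticulum (ER), and TAPBP (tapasin) holds the empty class I molecule beside it. NLRC5 is the transactivator of class I genes. It binds no DNA by itself and acts through the RFX, CREB/ATF and NF-Y factors on class I promoters. Tumours, colorectal cancer among them, are known to lose parts of this pathway.

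The levels are FPKM, fragments per kilobase of gene scaled to the mapped fragments of the library, as the authors deposited them. By the spacing of low values, 18.1 to 21.6 fragments per kilobase made up an FPKM of 1 in these libraries. Intervals below are 95% counting intervals from such estimates (Clopper-Pearson) and cover counting error only. TMEM161A was at 10.9% of control in HT29 si2 and 19.4% in LIM1215 si2. Of 10 markers of colorectal epithelium, EPCAM, CDH1, KRT8, KRT18, KRT19 and CDX2 were at 8.04 FPKM or more in all 4 libraries. KRT20, VIL1, LGALS4 and CDH17 were under 1 FPKM in both libraries labelled HT29, against 67.8 FPKM or more in both LIM1215 libraries. HT29 cells are usually described as expressing these intestinal genes, so these values go against the label, and the cause was not tested. HT29 below stands for the libraries labelled HT29. The summed level of 10 leukocyte markers was 1.45 to 2.53 FPKM, and PTPRC, CD3E, CD2 and MS4A1 were listed at 0 in all 4 libraries. The summed level of 10 fibroblast and endothelial markers was 6.63 to 18.4 FPKM, most of it COL1A1 (4.83 to 17.6), and LUM was at 0 in all 4 libraries.

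The promoters are shown first, because class I genes are known for shared promoter elements. No value here ties these elements to the levels below. RefSeq windows (GRCh38.p14) from 250 bases before to 20 bases after the start site were used for 8 of the 9 genes, all but NLRC5. PSMB8 and TAP1 have 2 starts each, which makes 10 windows. Each line gives the strand of the gene, 5′ to 3′. Capitals mark AANNGAAA, the core of sites for interferon regulatory factors (IRF), the Y box CCAAT of NF-Y, and TGACG, the core of CREB/ATF sites, on either strand. The heavy chains and their light chain come first, then TAP1, and both starts of PSMB8, the gene with the largest difference between the lines. HLA alleles vary between people, and the sequences are the reference, not those of the lines.
HLA-B, chr6:31357160-31357429, minus strand: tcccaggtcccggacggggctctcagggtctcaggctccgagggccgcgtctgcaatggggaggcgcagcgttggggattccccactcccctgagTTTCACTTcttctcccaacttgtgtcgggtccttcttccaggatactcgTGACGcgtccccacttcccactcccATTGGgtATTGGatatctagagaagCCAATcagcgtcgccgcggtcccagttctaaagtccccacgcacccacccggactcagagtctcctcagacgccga
HLA-C, chr6:31272073-31272342, minus strand: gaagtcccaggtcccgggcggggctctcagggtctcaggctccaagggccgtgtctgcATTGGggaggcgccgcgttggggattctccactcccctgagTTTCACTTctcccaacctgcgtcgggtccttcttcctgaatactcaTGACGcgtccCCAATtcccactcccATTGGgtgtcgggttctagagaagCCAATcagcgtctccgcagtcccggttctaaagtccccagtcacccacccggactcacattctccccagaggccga
B2M, chr15:44711267-44711536, plus strand: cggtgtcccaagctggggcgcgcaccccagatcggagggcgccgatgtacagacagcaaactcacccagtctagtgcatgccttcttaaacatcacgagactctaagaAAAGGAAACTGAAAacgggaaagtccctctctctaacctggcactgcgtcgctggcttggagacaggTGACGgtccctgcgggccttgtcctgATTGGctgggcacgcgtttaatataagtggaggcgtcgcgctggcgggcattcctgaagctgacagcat
TAP1, chr6:32853685-32853954, minus strand: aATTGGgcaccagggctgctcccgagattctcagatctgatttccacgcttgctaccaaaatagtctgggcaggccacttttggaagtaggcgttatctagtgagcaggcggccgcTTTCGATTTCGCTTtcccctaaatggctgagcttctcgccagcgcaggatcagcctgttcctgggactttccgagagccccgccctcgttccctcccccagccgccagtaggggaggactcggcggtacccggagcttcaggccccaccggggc
PSMB8, first start, chr6:32844660-32844929, minus strand: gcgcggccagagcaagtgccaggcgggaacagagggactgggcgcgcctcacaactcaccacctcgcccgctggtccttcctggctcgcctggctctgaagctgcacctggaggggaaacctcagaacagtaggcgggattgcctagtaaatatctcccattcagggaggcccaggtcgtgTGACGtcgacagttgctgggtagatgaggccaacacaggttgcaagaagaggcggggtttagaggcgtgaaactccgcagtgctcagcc
PSMB8, second start, chr6:32844028-32844297, minus strand: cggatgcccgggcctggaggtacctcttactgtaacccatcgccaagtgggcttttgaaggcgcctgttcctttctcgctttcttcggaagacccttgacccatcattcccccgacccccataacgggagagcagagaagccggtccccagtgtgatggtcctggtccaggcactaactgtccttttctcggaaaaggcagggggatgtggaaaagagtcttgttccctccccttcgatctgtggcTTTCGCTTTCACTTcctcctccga

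HLA-B and HLA-C carried all 3 elements, with Y boxes at 3 and 4 places. TTTCACTT, an IRF core read on the other strand, began 155 bases before the start of HLA-B and 151 before that of HLA-C, where a Y box at 192 bases came ahead of it. TGACG followed at 106 and 105 bases, and the CCAAT nearest to the start lay 56 bases upstream in both. B2M had IRF cores at 142 and 136 bases, TGACG at 75 and the reverse of CCAAT at 49. TAP1 had IRF cores at 134 and 128 bases in the 487 bases that separate its start from that of PSMB9 on the opposite strand. The window of its other start (chr6:32852742-32853011) held 0 matches to these 3 elements. The PSMB8 windows differed from each other: the first held TGACG at 69 bases and no IRF core, and the second held IRF cores at the start site itself, the first of them beginning 4 bases upstream.

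Across the 8 genes, AANNGAAA was found in at least 1 window of 7, against 21.5% of 34943 windows of the same length. A longer IRF form, GAAA and NN followed by GAAA, which contains an AANNGAAA, was found in 5 of the 8, against 3.30% of windows. CCAAT was found in 5 against 33.2%, TGACG in 6 against 22.9%, and GGGNNTTCC, a form of the NF-kB site, in 4 against 6.13%. Genes with 2 starts had 2 chances to match. These matches describe letters in a window and show no binding.

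All 9 genes had a higher FPKM in LIM1215 NC than in HT29 NC, and 7 of them were at least 2-fold higher on the scale of log2(FPKM + 1): HLA-B, HLA-C, B2M, TAP1, PSMB8, PSMB9 and NLRC5. Among the 14803 genes with a mean FPKM of at least 1, 12.0% were at least 2-fold higher in LIM1215 NC. The median log2 ratio was 1.47 over the 9 genes and 0.05 over all genes compared. The si2 libraries gave the same 7 genes, with a median of 1.61 against 0.03 and a background of 12.7%. TAP2 and TAPBP stayed within 2-fold in both pairs. With FPKM rescaled to a common sum, the median of all genes in the control pair moved to −0.11, and the split of 1773 higher and 1099 lower genes moved to 1489 and 1452. With upper quartile scaling it was 1520 and 1403. Epithelial markers moved with the class I genes: 9 of 10 were at least 2-fold higher in LIM1215 in both pairs, and their summed level was 3140 and 3588 FPKM in HT29 NC and si2 against 8244 and 10111 in LIM1215. The part of this in the class I difference was not tested.

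**Figure D1:**
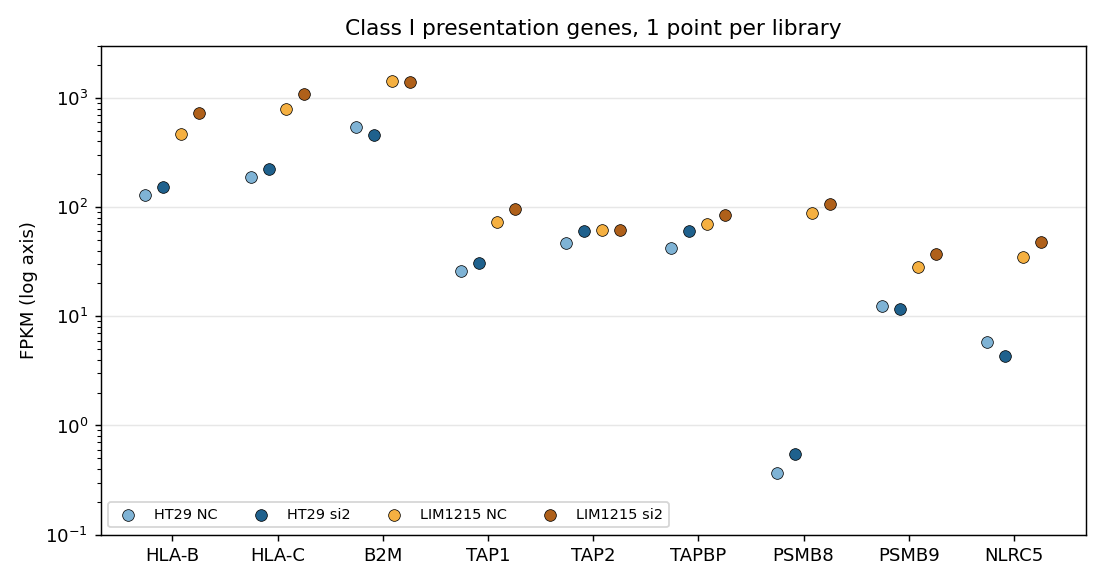
FPKM (log axis) of the 9 class I presentation genes, with 1 point for each of the 4 libraries. The LIM1215 points lie above the HT29 points for every gene, PSMB8 is under 1 FPKM only in HT29, and TAP2 differs least between the lines (46.5 to 62.4 FPKM).

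The heavy chains were among the most abundant of the 9 genes. HLA-B (ENSG00000234745, chromosome 6, 31353872 to 31367067, minus strand) was at 129.97 FPKM in HT29 NC, 152 in HT29 si2, 473 in LIM1215 NC and 731 in LIM1215 si2. LIM1215 was thus 3.64-fold above HT29 in the controls (interval 3.51 to 3.78) and 4.81-fold above it in the si2 libraries (4.65 to 4.97). HLA-C (ENSG00000204525, chromosome 6, 31268749 to 31272130, minus strand) was at 189, 225, 785 and 1094 FPKM in the same order. Its line difference was 4.15-fold in the controls (4.03 to 4.28) and 4.86-fold in the si2 libraries (4.73 to 4.99). HLA-C exceeded HLA-B in every library, by 1.45 to 1.66 times on the FPKM + 1 scale. Heavy chain sequences resemble each other and differ between people: 2.56% of the 50-base words of the canonical HLA-B transcript and 6.76% of those of HLA-C also occur in transcripts of other genes. How the alleles of each line aligned to the reference was not tested, so the HLA levels are uncertain. A pseudogene on the opposite strand overlaps 23.7% of the canonical HLA-B transcript and was listed at 0 in all 4 libraries.

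B2M (ENSG00000166710, chromosome 15, 44711358 to 44718851, plus strand) had the highest level of the 9 genes in every library. It was at 540.3 FPKM in HT29 NC, 460.0 in HT29 si2, 1444 in LIM1215 NC and 1391 in LIM1215 si2. The lines differed 2.67-fold in the controls (interval 2.61 to 2.74) and 3.02-fold in the si2 libraries (2.94 to 3.11). The mean of HLA-B and HLA-C was 29.7% of B2M in HT29 NC and 41.1% in HT29 si2. It was 43.6% in LIM1215 NC and 65.6% in LIM1215 si2, on the FPKM + 1 scale. The heavy chain share was thus higher in si2 than in NC of each line.

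The peptide transporter genes differed from each other. TAP1 (ENSG00000168394, chromosome 6, 32845209 to 32853816, minus strand) was at 25.95 FPKM in HT29 NC, 30.5 in HT29 si2, 73.7 in LIM1215 NC and 95.3 in LIM1215 si2. LIM1215 was 2.84-fold above HT29 in the controls (interval 2.66 to 3.02) and 3.12-fold in the si2 libraries (2.95 to 3.31). TAP2 (ENSG00000204267, chromosome 6, 32821833 to 32838739, minus strand) was at 46.5, 60.0, 62.4 and 62.0 FPKM in the same order. Its line difference was 1.34-fold in the controls (1.29 to 1.39) and 1.03-fold in the si2 libraries (0.9996 to 1.07). TAP1 was at 56.7% of TAP2 in HT29 NC and 51.7% in HT29 si2, but at 118% in LIM1215 NC and 153% in LIM1215 si2, on the FPKM + 1 scale. The order of the pair was therefore opposite in the lines.

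Overlapping genes limit the counting of the transporter genes. An unnamed coding gene (ENSG00000250264) runs through TAP2 on the same strand and covers 35.8% of the bases of the canonical TAP2 transcript. That gene was listed at 1.40 FPKM in HT29 NC, 5.85 in HT29 si2, 1.48 in LIM1215 NC and 1.94 in LIM1215 si2. Its part in the TAP2 values was not tested. The antisense gene PSMB8-AS1 overlaps 21.5% of the canonical TAP1 transcript and was at 0.349, 0.0917, 11.1 and 8.41 FPKM in the same order. The library kit marks strand, but whether counting used it is not given in the sources used here.

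TAPBP (ENSG00000231925, chromosome 6, 33299694 to 33314284, minus strand) had a smaller line difference. It was at 42.6 FPKM in HT29 NC, 60.5 in HT29 si2, 70.3 in LIM1215 NC and 84.4 in LIM1215 si2. LIM1215 was 1.65-fold above HT29 in the controls (interval 1.57 to 1.73) and 1.39-fold in the si2 libraries (1.34 to 1.45). TAP2 and TAPBP, the genes within 2-fold, had neighbouring levels in every library. Without replicates their order could not be set against a spread between samples. An antisense gene not used here overlaps 40.5% of the canonical TAPBP transcript.

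PSMB8 had the largest line difference of the 9 genes. PSMB8 (ENSG00000204264, chromosome 6, 32840717 to 32844679, minus strand) encodes the immunoproteasome subunit that takes the place of PSMB5. It was at 0.367 FPKM in HT29 NC and 0.553 in HT29 si2, or about 7.19 and 11.0 fragments. In LIM1215 it was at 88.6 FPKM in NC and 106 in si2, or about 1478 and 1983 fragments. The ratio between the lines was 241-fold in the controls (interval 120 to 617) and 192-fold in the si2 libraries (107 to 385). Its log2 ratios of 6.03 and 6.11 on the FPKM + 1 scale understate this, because HT29 lies below the pseudocount. None of its 50-base words occurs in another gene, and no exon of another gene overlaps its canonical transcript.

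PSMB9 (ENSG00000240065, chromosome 6, 32844136 to 32859851, plus strand) has an annotated span that overlaps PSMB8 and TAP1 on the opposite strand. PSMB9 was detected in both lines. It was at 12.4 FPKM in HT29 NC, 11.7 in HT29 si2, 28.4 in LIM1215 NC and 37.5 in LIM1215 si2. LIM1215 was 2.29-fold above HT29 in the controls (interval 1.94 to 2.71) and 3.21-fold in the si2 libraries (2.74 to 3.78). On the FPKM + 1 scale, PSMB8 was at 10.2% and 12.2% of PSMB9 in HT29 NC and si2. On the same scale it was at 305% and 278% of PSMB9 in LIM1215 NC and si2. The HT29 percentages are overstated, because PSMB8 lay below the pseudocount there. In the controls PSMB9 dropped within 2-fold with a pseudocount of 5, with the common sum and with upper quartile scaling, which leaves 6 of 9 genes past the threshold.

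Set beside their constitutive counterparts, the immunoproteasome subunits differed one by one. PSMB8 stood at 0.612% of PSMB5 in HT29 NC, 0.6997% in HT29 si2, 35.1% in LIM1215 NC and 42.1% in LIM1215 si2. PSMB9 stood at 5.96%, 5.52%, 14.3% and 18.8% of PSMB6 in the same order. PSMB10, the third interferon-inducible catalytic subunit, stood at 24.4%, 25.4%, 27.6% and 28.7% of PSMB7. These percentages are on the FPKM + 1 scale. In HT29 NC and si2, PSMB8 was at 0.367 and 0.553 FPKM, below the pseudocount, so its percentages there are overstated. The constitutive genes lay between 188 and 254 FPKM in all 4 libraries. PSMB10 was at 52.5 FPKM in HT29 NC and 56.2 in LIM1215 NC, a ratio of 1.07 (interval 0.972 to 1.18). The gap between the lines was thus very wide for PSMB8, moderate for PSMB9 and within counting error for PSMB10.

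NLRC5 (ENSG00000140853, chromosome 16, 56989485 to 57083531, plus strand) had the second largest line difference. It was at 5.87 FPKM in HT29 NC, 4.32 in HT29 si2, 35.2 in LIM1215 NC and 47.6 in LIM1215 si2. LIM1215 was 5.99-fold above HT29 in the controls (interval 5.56 to 6.47) and 11.0-fold in the si2 libraries (10.1 to 12.0). NLRC5 is a long gene and these levels rest on about 613 to 6351 fragments.

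Heavy chains, loading genes and NLRC5 were also set against each other within each library, on the FPKM + 1 scale. The mean of HLA-B and HLA-C was 4.08 times the mean of TAP1, TAP2 and TAPBP in HT29 NC and 3.69 times in HT29 si2. In LIM1215 it was 9.03 times in NC and 11.2 times in si2. The ratio of heavy chains to NLRC5 was 23.4 in HT29 NC, 35.6 in HT29 si2, 17.4 in LIM1215 NC and 18.8 in LIM1215 si2. The loading mean was 5.73 and 9.65 times NLRC5 in HT29 NC and si2, and 1.93 and 1.68 times in LIM1215 NC and si2. The lines thus stood farthest apart in NLRC5, less far in the heavy chains and least far in the loading mean. The order of NLRC5 and heavy chains depends on the pseudocount: with 5 in place of 1, heavy chains over NLRC5 came to 15.1 in HT29 NC and 15.8 in LIM1215 NC.

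**Figure D2:**
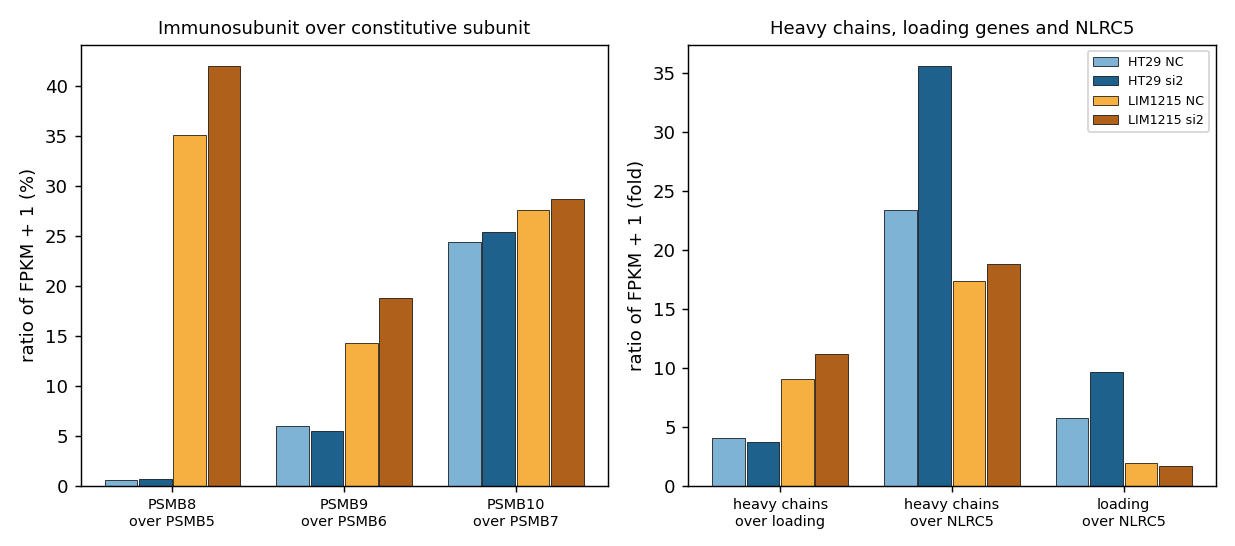
Left, each immunoproteasome subunit as a percentage of its constitutive counterpart; right, fold ratios between heavy chains (mean of HLA-B and HLA-C), loading genes (mean of TAP1, TAP2 and TAPBP) and NLRC5, from FPKM + 1, with 1 bar per library. PSMB8 reaches 42.1% of PSMB5 in LIM1215 si2 and stays under 1% in both HT29 libraries, where the pseudocount raises its percentage. PSMB10 is between 24.4% and 28.7% of PSMB7 throughout.

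Other genes of the pathway were read from 7 lists. Of 9 other class I heavy chains and class I-like genes, 8 passed the filter on low values, and 4 were at least 2-fold higher and 1 lower in LIM1215 NC, beside 12.0% higher and 7.42% lower of all genes compared. HLA-E, which shows leader peptides of other class I chains, was at 48.9 FPKM in HT29 NC and 150 in LIM1215 NC, 3.06-fold higher (interval 2.92 to 3.21). HLA-F, a nonclassical heavy chain, was at 14.7 and 60.9 FPKM, 4.14-fold higher (3.70 to 4.64). FCGRT, the heavy chain of the neonatal Fc receptor, which also pairs with B2M, was at 0.443 and 33.6 FPKM, 75.8-fold higher (44.3 to 151). HLA-G was listed at 0 in both HT29 libraries and at 2.32 and 2.24 FPKM in LIM1215 NC and si2. MICB, a stress-induced ligand of the receptor NKG2D that does not pair with B2M, was lower, at 28.9 and 11.9 FPKM (41.1% of HT29, 36.9% to 45.6%). The si2 pair gave the same counts for this list, 4 higher and 1 lower, beside 12.7% and 8.53% of all genes compared.

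Most of the general ER and proteasome genes stayed within 2-fold between the lines. Of 6 ER loading and trimming genes, 1 was at least 2-fold higher in LIM1215 in each pair and none lower. It was TAPBPL, a relative of tapasin, at 1.08 FPKM in HT29 NC and 12.7 in LIM1215 NC, 11.7-fold higher (interval 8.38 to 17.2). The chaperones CALR and CANX and the disulfide isomerase PDIA3, which assist class I folding, were 1.14-fold, 1.11-fold and 1.10-fold higher in LIM1215 NC. None of PSMB10, PSME1 and PSME2 passed the threshold in either pair, and PSME1 and PSME2, the proteasome activator subunits, had ratios of 1.08 and 1.29 in the controls. Of all genes compared, 12.0% were higher and 7.42% lower in the controls, and 12.7% and 8.53% in the si2 pair. The counts of these short lists are near those shares.

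Of 9 promoter factors, among them those through which NLRC5 acts, 8 passed the filter, and none differed 2-fold in either pair. With 12.0% of all genes higher and 7.42% lower in the controls, a count of 0 among 8 is near the background. RFX5 was at 36.6 FPKM in HT29 NC and 46.6 in LIM1215 NC, RFXANK at 56.4 and 70.1, and CREB1 at 25.5 and 28.9. Of the NF-Y genes, NFYA was at 19.8 and 22.9, NFYB at 14.1 and 10.5, and NFYC at 50.1 and 47.9. Of the 8 factors, 6 had a log2 ratio above 0 in the controls, against 53.7% of all genes compared. CIITA, the class II relative of NLRC5, was under 0.124 FPKM in all 4 libraries, and did not pass the filter. Of 9 class II genes 2 passed the filter, HLA-DRB1 and HLA-DMA, and the class II list summed to 10.9 to 18.1 FPKM. HLA-DRB1 was at least 2-fold higher in LIM1215 NC (3.70 against 0.960 FPKM), and neither gene passed in the si2 pair.

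Of 12 interferon signalling genes, with a gene of that list not reported here, none was at least 2-fold higher and 1 lower in LIM1215 NC, and 1 was higher and 2 lower in LIM1215 si2 than in HT29 si2. These counts are near the shares of all genes, 12.0% higher and 7.42% lower in the controls and 12.7% and 8.53% in the si2 pair. SOCS1, an inhibitor of JAK kinases, was the lower gene of the controls, at 1.70 FPKM in HT29 NC and 0.323 in LIM1215 NC. IRF1, an interferon-induced activator of class I and immunoproteasome genes, was at 24.9 FPKM in HT29 NC, 26.2 in HT29 si2, 13.6 in LIM1215 NC and 10.8 in LIM1215 si2. It was lower in LIM1215 in both pairs and passed the threshold in the si2 pair, as did SOCS1. Any relation to the class I levels was not tested. IRF9, a DNA-binding factor of the type I interferon response, was at 20.5 FPKM in HT29 NC, 21.0 in HT29 si2, 41.4 in LIM1215 NC and 48.6 in LIM1215 si2 and passed the threshold in the si2 pair only, with log2 ratios of 0.98 and 1.17.

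**Figure D3:**
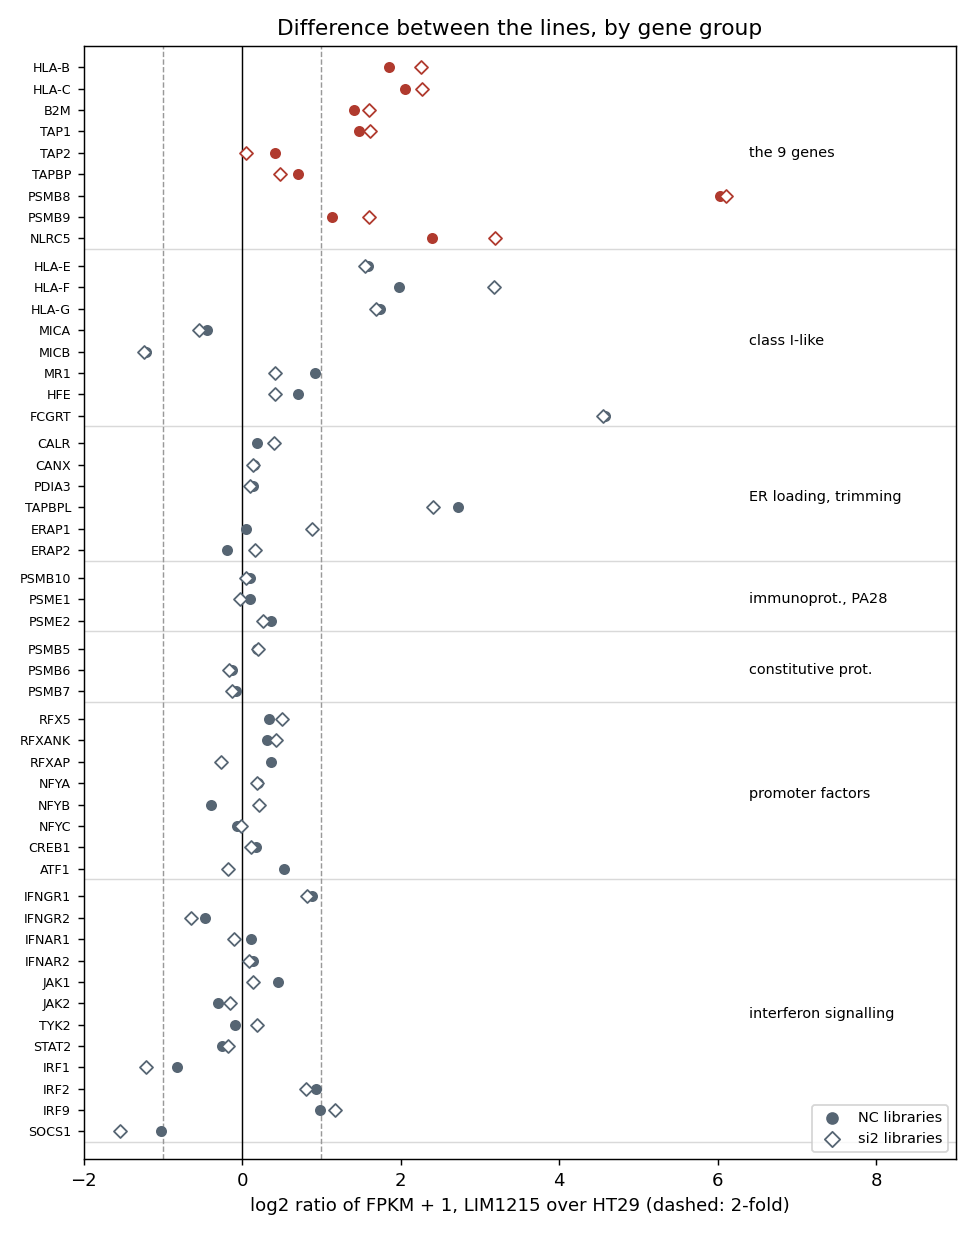
log2 ratio of FPKM + 1, LIM1215 over HT29, for the 9 genes (red) and for genes of 6 pathway lists that passed the filter (grey), from the NC libraries (filled circles) and the si2 libraries (open diamonds). Of the 9 genes 7 lie beyond the 2-fold line on the right in both pairs, while no promoter factor does and most interferon signalling genes lie within 2-fold.

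With TMEM161A knocked down, none of the 9 genes passed the 2-fold threshold in either line, against 3.80% of all genes compared in HT29 and 3.46% in LIM1215, counted in either direction. The median log2 ratio of the 9 genes was 0.22 in HT29 and 0.37 in LIM1215, against 0.04 and 0.02 over all genes compared. In HT29, 6 of the 9 had a log2 ratio above 0, against 53.9% of all genes, and in LIM1215, 7 of 9 against 53.1%. In HT29 the counting interval lay above no change for 5 genes, below it for 2 and across it for 2. In LIM1215 it lay above for 7, below for 1 and across for 1. The control of each line is part of its line comparison too, so these values and the line differences are not independent.

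The heavy chains were higher in si2 in both lines. HLA-B was at 117% of control in HT29 (interval 112% to 122%) and 155% in LIM1215 (151% to 158%). HLA-C was at 119% (115% to 123%) and 139% (137% to 142%). HLA-B in LIM1215 was the only one of the 9 genes past a 1.5-fold threshold in either line on the FPKM + 1 scale. B2M did not follow its heavy chains: it was at 85.1% of control in HT29 (82.5% to 87.9%) and 96.3% in LIM1215 (94.5% to 98.3%).

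The loading genes were higher or level. TAP1 was at 118% of control in HT29 (interval 109% to 126%) and 129% in LIM1215 (124% to 135%). TAPBP was at 142% (135% to 149%) and 120% (115% to 125%). TAP2 was at 129% in HT29 (124% to 134%) and 99.3% in LIM1215 (95.9% to 103%). The gene that overlaps TAP2 was at 1.40 FPKM in HT29 NC and 5.85 in HT29 si2, and its part in the TAP2 value was not tested.

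The immunoproteasome subunits were higher in LIM1215 si2, with PSMB8 at 120% of control (interval 112% to 128%) and PSMB9 at 132% (116% to 150%). In HT29, PSMB9 was at 94.3% (77.3% to 114%) and PSMB8 at 150% (54.8% to 471%), so no difference was detectable at this depth. PSMB8 stayed under 1 FPKM in both HT29 libraries.

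NLRC5 went opposite ways. It was at 73.6% of control in HT29 (interval 66.2% to 81.8%) and 135% in LIM1215 (130% to 141%). HLA-F showed the same split, at 68.7% (58.7% to 80.2%) in HT29 and 163% (153% to 174%) in LIM1215. HLA-E did not, at 119% (112% to 125%) and 115% (111% to 119%). The difference between the lines was not tested, since each value comes from a single pair of libraries.

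**Figure D4:**
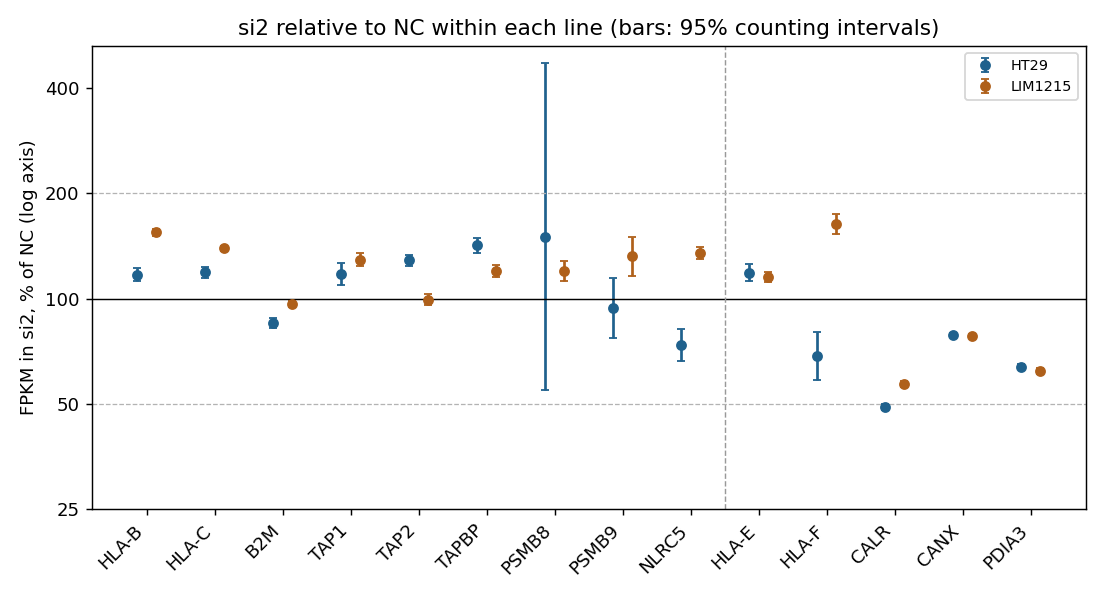
FPKM in si2 as a percentage of NC (log axis) in HT29 (blue) and LIM1215 (brown), with 95% counting intervals, for the 9 genes (left of the dashed line) and 5 genes that act with them. All 9 lie between 50% and 200% in both lines, NLRC5 and HLA-F lie below 100% in HT29 and above it in LIM1215, and CALR, CANX and PDIA3 lie below 100% in both.

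CALR, PDIA3 and CANX, which assist class I folding in the ER, had lower levels in si2 than in NC in both lines. CALR was at 49.1% of control in HT29, the only 1 of these values past the threshold, and at 57.1% in LIM1215. PDIA3 was at 63.8% and 62.1%, and CANX at 78.6% and 78.2%. TAPBP, at 142% and 120%, thus went the other way from these chaperones in both lines. Over the 6 ER loading and trimming genes the median was −0.66 (log2) in HT29 and −0.43 in LIM1215, with 1 and 0 genes at least 2-fold lower. Of all genes compared, 3.80% in HT29 and 3.46% in LIM1215 passed the threshold in either direction. ERAP1, an aminopeptidase that trims peptides in the ER, was at 60.7% of control in HT29 (interval 56.1% to 65.4%) and 112% in LIM1215 (105% to 120%).

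Of the 12 interferon signalling genes, none passed the threshold in HT29 and 1 was lower in LIM1215. It was JAK1, the kinase shared by type I and type II interferon receptors. JAK1 was at 35.8 FPKM in HT29 NC, 19.97 in HT29 si2, 49.5 in LIM1215 NC and 22.1 in LIM1215 si2, or 55.8% and 44.7% of control. IRF1 was at 105% and 79.2% of control. No gene of the class I-like, immunoproteasome, constitutive proteasome, promoter factor or class II lists passed the threshold in either line. Of all genes compared, 3.80% passed it in HT29 and 3.46% in LIM1215, counted in either direction. The counts of these short lists and of the interferon list are thus near the background. MR1, which shows vitamin metabolites to T cells, was at 214% of control in HT29 and 140% in LIM1215, with log2 ratios of 0.94 and 0.44 on the FPKM + 1 scale. FCGRT, low in HT29, was at 383% (206% to 815%) and 185% (170% to 202%), with log2 ratios of 0.90 and 0.87.

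The genes whose 3 log2 ratios (LIM1215 NC over HT29 NC, and si2 over NC in each line) lay nearest to those of NLRC5, TAP1 and B2M were sought among protein-coding genes with a mean FPKM of at least 5. The 9 presentation genes were left out of the search, as were genes whose symbol had several rows. The measure was the Euclidean distance over these 3 ratios from 4 libraries. CRIP1, LRRC75A and ADAP1 were nearest to NLRC5, at distances of 0.10, 0.19 and 0.22. CRIP1 had log2 ratios of 2.36, −0.45 and 0.37, beside 2.40, −0.37 and 0.43 for NLRC5. MEGF6, RAMP1 and KCNK1 were nearest to TAP1, at 0.06, 0.09 and 0.10. TPD52L1, CHDH and PEX7 were nearest to B2M, at 0.10, 0.11 and 0.11. None of the 9 nearest genes is on the pathway lists.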

How the data were processed

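RNA of HT29 and LIM1215 cells was sequenced after an mRNA library kit that marks strand, per the labels' protocols, 1 library per group. The authors deposited FPKM per Ensembl gene, which corrects for gene length and library depth. HISAT2 2.1.0, SAMtools 1.20, Cufflinks 2.2.1 and Cuffdiff on GRCh38 are named in the submitters' processing notes. The gene annotation, filters and strand setting are not given in the sources used here. FPKM is relative to all fragments, so abundant genes that increase pull the other values down.

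Symbols, positions and overlaps came from GENCODE release 44 on GRCh38, and 56550 of 60658 identifiers had a symbol. Genes with a mean FPKM of at least 1 over the 4 libraries were compared (14803, all 9 genes among them) as log2 ratios after adding a pseudocount of 1 to FPKM, with a 2-fold threshold and no test. This scale understates changes of low genes. Depth was fitted, per library, as the fragments per kilobase and length offset (202 to 203 bases) that bring low values of single-transcript genes within 0.03 of whole numbers, and 79.2% to 80.6% of them came within it. Scripts ran in Python 3.11.15 (pandas 2.3.3, scipy 1.17.1) and were tested on simulated data. The genes, lists and rules were chosen with earlier results of these data known. Named genes are the 9 genes, the pathway lists, marker genes, TMEM161A, and the 3 nearest genes each to NLRC5, TAP1 and B2M. A gene of the interferon list is not reported here and is left out of its counts. PSMB8-AS1 and ENSG00000250264 were named after their overlap was seen. Alternatives were pseudocounts of 0.1 and 5, no filter or a mean FPKM of at least 5, median centring, a common sum (TPM), upper quartile scaling and a 1.5-fold threshold.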

Additional observations from a re-analysis of the deposited data

Results flagged for a closer look

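For 12 genes of the pathway with an FPKM of at least 1 in all 4 libraries, si2 was above NC in one line and below it in the other. These differences were not tested, as a single pair of libraries stands behind each value. The share of all genes compared with opposite signs was not counted, so the 12 have no background to be read against. Over all genes compared, 53.9% lay above no change in HT29 and 53.1% in LIM1215. The values below are the log2 ratio of LIM1215 minus that of HT29. Among the 9 presentation genes the difference was 0.79 for NLRC5 (−0.37 in HT29 and 0.43 in LIM1215), 0.47 for PSMB9 (−0.08 and 0.39) and −0.37 for TAP2 (0.36 and −0.01). The counting intervals of PSMB9 in HT29 and of TAP2 in LIM1215 included no change.

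Among heavy chains and ER genes it was 1.198 for HLA-F (−0.50 and 0.70), 0.83 for ERAP1 (−0.67 and 0.16) and −0.31 for TAPBPL (0.14 and −0.17). Among promoter factors it was 0.17 for RFX5 (−0.04 and 0.13) and −0.71 for ATF1 (0.41 and −0.31). Among interferon signalling genes it was −0.38 for IRF1 (0.07 and −0.31) and −0.18 for IFNGR2 (0.16 and −0.02). It was −0.39 for HLA-DMA (0.36 and −0.03) and −0.037 for PSMB6 (0.034 and −0.003). A ratio near no change in a line, as for PSMB6, RFX5, IFNGR2 and HLA-DMA, leaves its sign uncertain. TAPBPL rested on about 36.2 fragments in HT29 NC and 44.1 in HT29 si2.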

How the results depend on the processing

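With the 2-fold threshold, 6 or 7 of the 9 genes passed between the lines in the control pair under every alternative, and 7 in the si2 pair. The 1.5-fold threshold gave 8 in the control pair and 7 in the si2 pair. The number past the threshold was 0 within each line under every alternative, except that the 1.5-fold threshold gave 1 gene in LIM1215. Each of the 9 genes kept the sign of its log2 ratio in every comparison and alternative, except TAP2 between the si2 libraries, which ranged from −0.08 to 0.05. With a pseudocount of 0.1 the ratio of heavy chains to NLRC5 was 26.7 in HT29 NC and 42.7 in HT29 si2. With a pseudocount of 5 it was 15.1 in HT29 NC, 20.8 in HT29 si2, 15.8 in LIM1215 NC and 17.4 in LIM1215 si2, so HT29 NC no longer exceeded LIM1215 NC. With the same pseudocount, heavy chains over loading genes came to 3.79, 3.50, 8.59 and 10.7 in that order. The log2 ratio of PSMB8 in the control pair ranged from 4.12 to 7.57 with the pseudocount. Summing all entries of a symbol changed nothing, since each had 1 entry.

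Background counts (higher and lower) moved more. They were 1773 and 1099 in the control pair, 1877 and 1262 in the si2 pair, 274 and 288 in HT29, and 249 and 263 in LIM1215. A pseudocount of 5 gave 947 and 353, 1059 and 491, 87 and 94, and 68 and 88. A mean FPKM of at least 5 gave 1107 and 563, 1170 and 681, 128 and 144, and 89 and 113. A 1.5-fold threshold gave 3220 and 2409, 3219 and 2558, 1165 and 1023, and 982 and 915. Within the lines, a pseudocount of 0.1 gave 570 and 558 in HT29 and 476 and 508 in LIM1215, and no filter gave 395 higher in LIM1215. The labels give no replicate numbers, and within a line no paired analysis was possible, because each comparison sets 1 library against 1 other. A fit over both lines with the line as a block was not run. Depth limits PSMB8 in HT29 most, with about 7.19 and 11.0 fragments.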

Other observations

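Of 4 interferon receptor genes, 3 (IFNGR1, IFNAR1 and IFNAR2) had lower levels in si2 than in NC in both lines, and IFNGR2 did not. None passed the 2-fold threshold, which 3.80% of all genes compared passed in HT29 and 3.46% in LIM1215. Over all genes compared, 53.9% lay above no change in HT29 and 53.1% in LIM1215. The share of all genes lower in both lines was not counted. The receptor genes were singled out after their values were seen. IFNGR1, a chain of the type II receptor, was at 27.9 FPKM in HT29 NC and 20.7 in HT29 si2, and at 52.1 and 37.1 in LIM1215. IFNAR1 and IFNAR2, the chains of the type I receptor, were at 14.5 and 6.21 FPKM in HT29 NC and 11.4 and 4.43 in HT29 si2. In LIM1215 they were at 15.7 and 6.91 in NC and 10.5 and 4.75 in si2. IFNGR2, the other chain of the type II receptor, was at 34.99 and 39.1 FPKM in HT29 and 25.1 and 24.7 in LIM1215. The kinase JAK2 was higher in si2, at 1.49 and 2.28 FPKM in HT29 and 1.02 and 1.96 in LIM1215, and also stayed within 2-fold on the FPKM + 1 scale.

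Of the 9 class II genes, HLA-DMA, which helps load class II molecules, had the highest level in every library, at 8.20 and 10.8 FPKM in HT29 NC and si2 and 7.97 and 7.79 in LIM1215. HLA-DRB1, a class II beta chain, was at 0.960 and 1.23 FPKM in HT29 and 3.70 and 2.11 in LIM1215. HLA-DRA, a class II alpha chain, was at 1.35 and 1.42 FPKM in HT29 NC and si2 and at 0.114 and 0.390 in LIM1215. HLA-DPA1 was at 0.535 and 0.907 in HT29 and listed at 0 in both LIM1215 libraries. HLA-DQA1 was listed at 0 in all 4 libraries.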
